A study of Mus musculus with 6 samples.

Results

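Bhlhe40 (DEC1) and Bhlhe41 (DEC2) are 2 of the 31053 gene rows in the single-cell count matrices and were taken by their symbols. The material carried the source label YUMM2.1, a mouse melanoma cell line. The labels gave 3 groups of differing Bmal1 status, each with 3 hashtagged replicates pooled into 1 droplet library. Empty vector (replicates h1, h7 and h8) and Bmal1 WT (h3, h5 and h9) were compared here. The matrix labelled Bmal1 bHLH was a copy of the Bmal1 WT matrix, so that group was not analysed here. No time, dose, host or treatment was given for any group, and whether the cells came from culture or tissue was not said. The genes were chosen by the rise of Bhlhe41 in Bmal1 WT over all cells, so its values in that contrast are given as a description with no test.

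Bhlhe40 and Bhlhe41 are paralogous basic helix-loop-helix repressors with an Orange domain. They bind E-boxes, the DNA motif that the BMAL1 and CLOCK complex also binds, and oppose it there, while being transcribed as clock-controlled genes themselves. Both are known as hypoxia-induced genes, and Bhlhe40 is known in T cells and myeloid cells as a regulator of cytokine genes, among them Il10.

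In GENCODE M21 (GRCm38) Bhlhe40 (ENSMUSG00000030103) lies on chr6:108660629-108666925, plus strand, and its first bases overlap the antisense gene 0610040F04Rik, which had 19 UMIs (unique molecular identifiers, each marking 1 captured transcript) in all kept cells. Bhlhe41 (ENSMUSG00000030256) lies on chr6:145858243-145865558, minus strand. The bases just upstream of its annotated start are shown because the groups are labelled by Bmal1, which binds E-boxes. They come from RefSeq (GRCm38.p6, chr6:145865559-145865670, minus strand, written 5′ to 3′), and capitals mark a CACGTG E-box whose last base is 10 bases from the GENCODE start. From the RefSeq start of the gene the motif is 147 bases away.

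Bhlhe41 promoter: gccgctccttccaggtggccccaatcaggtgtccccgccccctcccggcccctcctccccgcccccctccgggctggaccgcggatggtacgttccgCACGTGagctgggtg

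CACGTG reads the same on both strands. It was found in 654 of 32851 promoter windows of the same 112 bases (1.99%) and in 7.15% of windows of 300 bases. The match is a description of these letters only.

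The 2 libraries held 3978 and 2386 kept cells (Empty vector and Bmal1 WT), with medians of 5094 and 7570.5 UMIs per cell and 33907757 and 38511902 UMIs in all. Each library was 1 droplet channel, so group and channel cannot be told apart, and 5 barcode sequences occurred in both. A cell was placed in a class when it carried the markers of that class, and not those of a second one, so classes are named below as gated. Of the kept cells, 9.75% and 27.7% carried no hashtag and entered no replicate. Arntl, which encodes Bmal1, measured 25.5, 20.4 and 23.6 CPM (UMIs per 1000000 UMIs of the same cells) in the Empty vector replicates and 20.6, 40.8 and 30.7 CPM in those of Bmal1 WT, and the groups overlapped. In melanoma-gated cells Arntl was at 42.6, 95.2 and 58.6 CPM against 47.5, 61.1 and 71.3 CPM, again with overlap. Whether these 3′ counts hold transcripts from a vector was not said, so the values do not tell whether Bmal1 was raised. Among melanoma-gated cells, 69.0% had Sox10 and 81.8% S100b, whereas the pigment genes Mlana and Tyrp1 were at 0% and Pmel, Dct and Tyr at 0.642%, 0.857% and 1.07%. The gate therefore rests on neural crest genes and not on pigment genes. Fibroblast-gated cells had Col1a1 in 91.6% and Dcn in 92.1%.

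Bhlhe40 was found in every one of the 6 classes compared. Its level summed over cells was highest in macrophage- or monocyte-gated cells, which could not be ordered against NK-cell-gated cells over replicates. Among the same 6 classes Bhlhe41 was found mainly in fibroblast-gated cells and then in melanoma-gated cells. These 2 classes held 66.9% of all Bhlhe41 UMIs and 21.1% of all Bhlhe40 UMIs, with 31.5% of the UMIs of all genes. Cells with too few markers for any class (ungated) were not among the 6 classes. Pooled over both libraries they had Bhlhe41 at 33.3 CPM (67 UMIs), against 27.9 CPM in melanoma-gated cells.

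**Figure D1:**
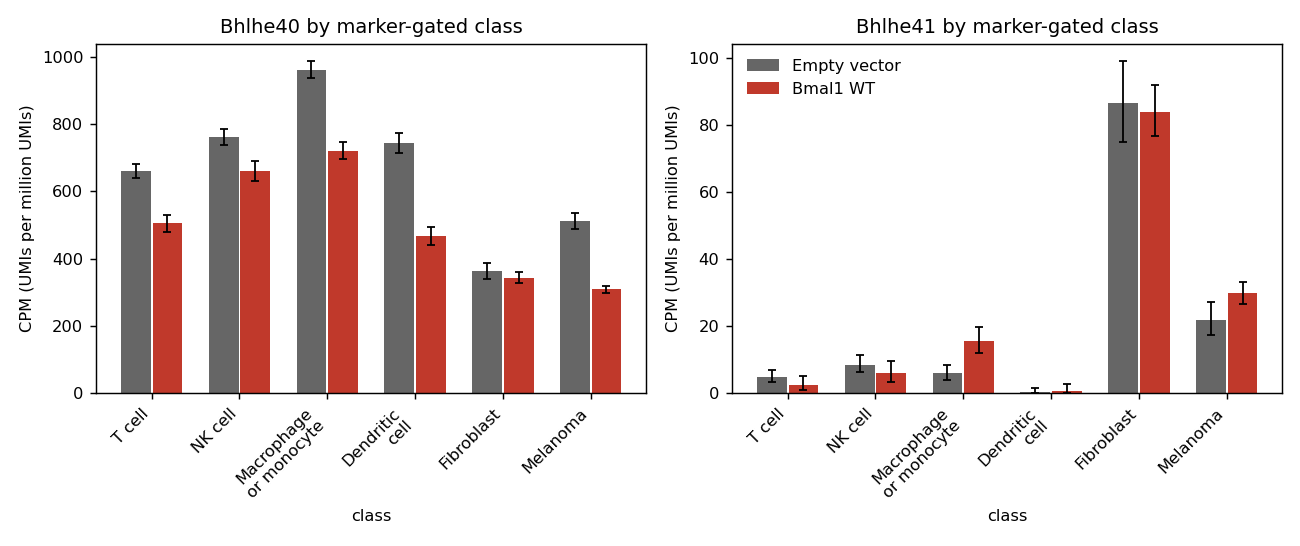
Level of Bhlhe40 (left) and Bhlhe41 (right) in CPM (y axes, starting at 0, with different ranges) for each marker-gated class (x axis) in the Empty vector library (grey) and the Bmal1 WT library (red). Bars are sums over all cells of a class in a library and error bars are exact 95% Poisson intervals, which cover counting error only. Bhlhe41 stands at 86.5 and 84.0 CPM in fibroblast-gated cells and at or below 15.6 CPM in the 4 immune classes.

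Summed over all fibroblast-gated cells of a library, Bhlhe41 measured 86.5 CPM (95% exact Poisson interval 74.9 to 99.2, 202 UMIs, 137 cells) in Empty vector. It measured 84.0 CPM (76.6 to 91.8, 479 UMIs, 230 cells) in Bmal1 WT. Such intervals, and all limits from a count of 0, cover counting error only. The interval of Bmal1 WT lay within that of Empty vector, so a difference in fibroblast-gated cells was not detectable at this depth. In melanoma-gated cells Bhlhe41 was at 21.8 CPM (17.3 to 27.2, 79 UMIs, 133 cells) and 29.8 CPM (26.7 to 33.2, 333 UMIs, 334 cells). NK-cell-gated cells had 8.59 and 6.01 CPM, and T-cell-gated cells had 4.96 and 2.61 CPM. Dendritic-cell-gated cells were close to empty of Bhlhe41, with 1 UMI in 297 cells and 2 UMIs in 205 cells.

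At least 1 Bhlhe41 UMI was seen in 44.5% and 49.1% of fibroblast-gated cells (Empty vector and Bmal1 WT, median depth 14330 and 19326.5 UMIs). The share was 0.337% and 0.488% of dendritic-cell-gated cells, whose median depths were 9118 and 9867 UMIs. The level of free RNA was not measured. T-cell-gated cells, with medians of 4199 and 6333 UMIs, had 1.82% and 1.79%. With every cell thinned to 2000 UMIs, the shares in fibroblast-gated cells were 16.0% (Clopper-Pearson 95% interval 9.90% to 23.8%, 119 cells) and 17.6% (12.6% to 23.5%, 205 cells). Thinning left out 18 and 25 shallower cells. Dendritic-cell-gated cells then had 0 of 262 and 0 of 161, with upper limits of 1.40% and 2.27%. In melanoma-gated cells the thinned share was 2.78% (0.577% to 7.90%) and 6.01% (3.54% to 9.44%).

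Over the 6 hashtag replicates, the level of Bhlhe41 averaged 81.1 ± 65.2 CPM (SD, n = 6) in fibroblast-gated cells and 37.7 ± 22.4 CPM in melanoma-gated cells. The averages for NK-cell-, macrophage- or monocyte-, T-cell- and dendritic-cell-gated cells were 7.43 ± 3.31, 9.02 ± 6.62, 3.05 ± 2.25 and 0.440 ± 0.722 CPM. By the mean log2 value the order was fibroblast, melanoma, NK cell, macrophage or monocyte, T cell and dendritic cell. T-cell-gated cells lay above dendritic-cell-gated cells in 6 of 6 replicates, by 1.43 on the log2(CPM + 1) scale (SD 0.77). This gave an exact sign-flip p of 0.03125, the smallest that 6 pairs allow, and 0.156 after Benjamini-Hochberg adjustment over 10 neighbour comparisons. Fibroblast-gated over melanoma-gated cells (1.09, SD 1.04, 5 of 6 replicates) and melanoma-gated over NK-cell-gated cells (1.95, SD 1.25, 5 of 6) each had an exact p of 0.0625, adjusted 0.156. NK-cell- and macrophage- or monocyte-gated cells could not be ordered (0.16, SD 1.99, exact p = 0.906, adjusted 0.938). No neighbouring classes were thus separated after adjustment. Most of the 10 comparisons would have had to reach the smallest p for any to pass. Classes further apart in the order were not tested, so no conclusion is drawn from the lack of a call.

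Bhlhe40 had another order and a narrower range. In Empty vector it was at 962 CPM (936 to 989, 5113 UMIs) in macrophage- or monocyte-gated cells, at 761 CPM in NK-cell-, 743 CPM in dendritic-cell- and 661 CPM in T-cell-gated cells. Melanoma- and fibroblast-gated cells had 512 and 363 CPM. In Bmal1 WT the same classes had 722, 660.1, 468, 505, 310 and 344 CPM. At least 1 UMI was found in 84.6% and 89.5% of NK-cell-gated cells and in 71.5% and 80.0% of fibroblast-gated cells. Thinned to 2000 UMIs, the share ran from 40.3% (Empty vector, fibroblast-gated) to 69.0% (Empty vector, NK-cell-gated). In macrophage- or monocyte-gated cells it was 61.3% and 62.4%, below the 69.0% and 66.7% of NK-cell-gated cells. Over the 6 replicates none of the 5 pairs of neighbouring classes passed after adjustment, under the same limit of the test. The widest step, T-cell- over melanoma-gated cells, was 0.69 on the log2(CPM + 1) scale (SD 0.72, 5 of 6 replicates, exact p = 0.0625, adjusted 0.156). Macrophage- or monocyte- and NK-cell-gated cells could not be ordered (0.10, SD 0.35, 3 of 6 replicates, exact sign-flip p = 0.4375, adjusted 0.586).

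The genes whose levels ran most like each paralogue were sought over 12 sums of 6 classes in 2 libraries, among 9320 genes. For Bhlhe40 these were Il10rb, a receptor chain for interleukin 10, Dazap2, Zfp277, Irak4, a kinase of Toll-like receptor signalling, and Vcpip1, with Pearson r between 0.924 and 0.945. For Bhlhe41 they were Rbms2, Timp2, an inhibitor of matrix metalloproteinases, Sh3d19, Clcn4 and Serf1, with r between 0.940 and 0.952. The 2 paralogues themselves had r = -0.58. The 12 points share 2 libraries and their depth, and these values are descriptions of these sums.

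Over all cells with 1 hashtag, Bhlhe41 measured 10.3, 8.08 and 5.93 CPM in the Empty vector replicates h1, h7 and h8. It measured 20.03, 22.3 and 29.4 CPM in the Bmal1 WT replicates h3, h5 and h9. All 3 Bmal1 WT replicates were above all 3 Empty vector replicates. The means were 8.09 ± 2.17 and 23.9 ± 4.90 CPM (SD, n = 3 each), and edgeR's log2 fold change was 1.55 ± 0.26 (SE). These are the values for which the gene was chosen, and 12.8% of the 12042 genes tested were separated in this direction. Bhlhe40 went the other way, with 698, 769 and 625 CPM against 603, 303 and 420 CPM, and again the groups did not overlap. The means were 698 ± 72.1 and 442 ± 151 CPM, with a log2 fold change of -0.66 ± 0.25 (SE) and an adjusted p of 0.182 (edgeR's quasi-likelihood test, unadjusted p = 0.0347). In this comparison 0% of genes passed edgeR's adjusted threshold, 2933 had an unadjusted p under 0.05, and DESeq2 called 961. Of all genes tested, 21.2% were separated in the direction of Bhlhe40, so a separation of this kind was common.

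**Figure D2:**
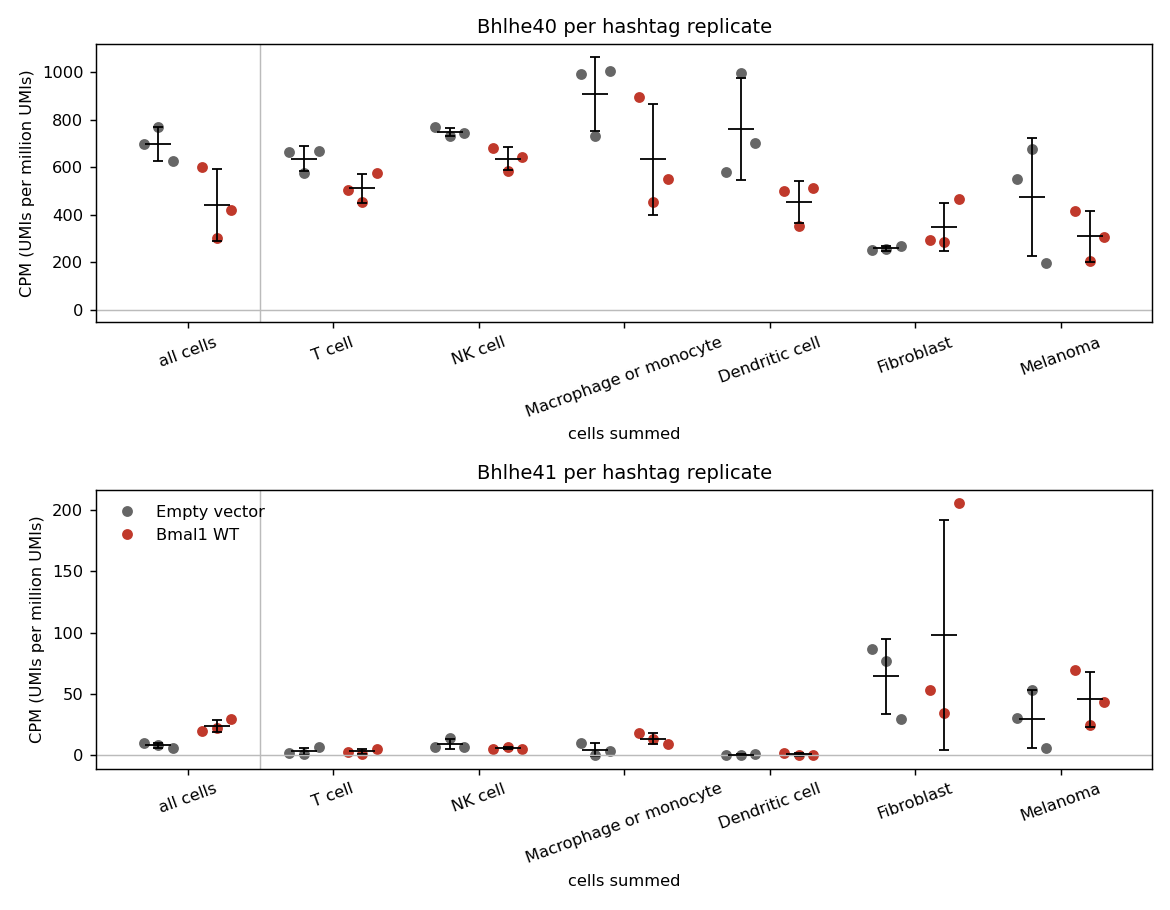
Level of Bhlhe40 (top) and Bhlhe41 (bottom) in CPM (y axes) in each hashtag replicate, for all cells and for the 6 gated classes (x axis), with Empty vector in grey and Bmal1 WT in red. Points are replicates, horizontal ticks are means and bars are ±1 SD (n = 3 per group). Over all cells the groups are apart for both genes, while in fibroblast-gated cells 1 Bmal1 WT replicate at 206 CPM sets the mean of Bhlhe41.

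The rise of Bhlhe41 was not the same in cells with and without a hashtag. Cells with 1 hashtag had 8.22 and 22.8 CPM in the Empty vector and Bmal1 WT libraries (227 and 552 UMIs). Cells with no hashtag had 50.2 and 45.8 CPM (210 and 597 UMIs in 388 and 660 cells), a log2 ratio of -0.13 with a 95% counting interval from -0.36 to 0.10. No hashtag was found on 97 of 137 and 177 of 230 fibroblast-gated cells and on 80 of 133 and 229 of 334 melanoma-gated cells. Among the classes compared, these had the highest levels of Bhlhe41. Only 30 and 46 fibroblast-gated cells carried 1 hashtag, and the replicate values for that class rest on 8 to 19 cells each. Bhlhe40 was lower in Bmal1 WT in both kinds of cell, with 685 against 446 CPM with 1 hashtag and 555 against 320 CPM with none.

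The difference over all cells of a library was then divided into a part from the mix of classes (the share of UMIs each class gave, at the mean level of both libraries) and a part from the level within each class. Bhlhe41 went from 13.6 to 30.4 CPM, a rise of 16.8 CPM, of which 10.3 CPM (61.3%) came from the mix and 6.49 CPM (38.7%) from levels within classes. Fibroblast-gated cells gave 6.89% of the UMIs in Empty vector and 14.8% in Bmal1 WT, and their larger share alone came to 40.2% of the rise. Their level within the class gave -1.61%. Melanoma-gated cells gave 10.7% and 28.99% of the UMIs, which came to 28.2% of the rise through the mix and 9.45% through their level. Cells with markers of 2 classes gave 20.1% through their level. Ungated cells gave 2.20% through the mix and 6.19% through their level. The larger shares of fibroblast- and melanoma-gated cells thus carried most of the mix part, and the smaller shares of T-cell-, NK-cell- and macrophage- or monocyte-gated cells counted against it, at -2.36%, -3.97% and -3.24%.

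**Figure D3:**
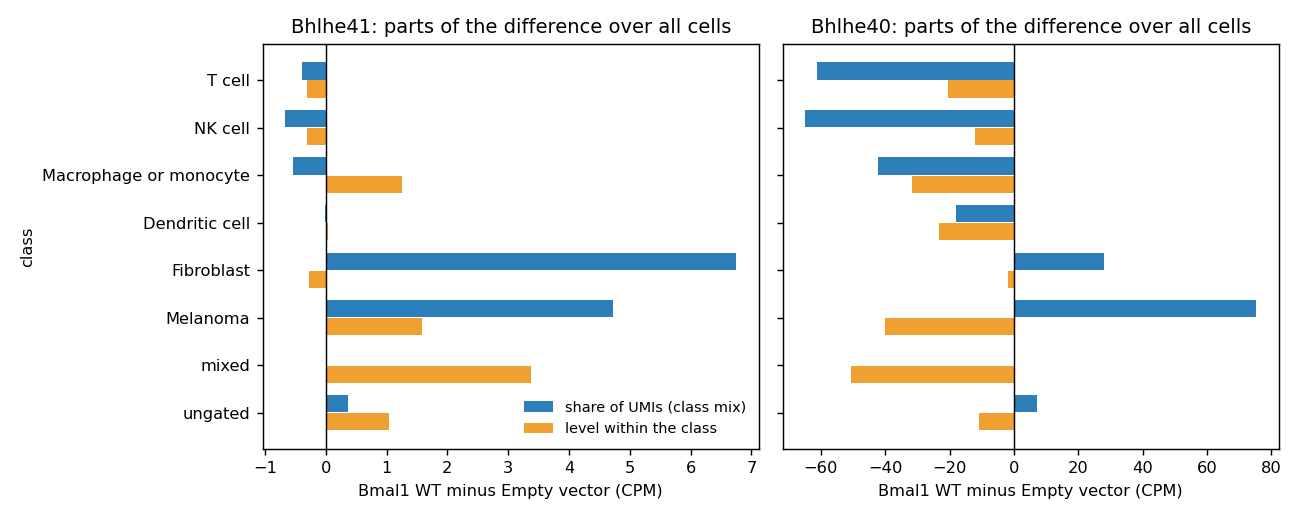
Parts of the difference over all cells (Bmal1 WT minus Empty vector, x axes in CPM, with different ranges) for Bhlhe41 (left) and Bhlhe40 (right) by class (y axis). Blue bars are the part from a class's share of UMIs and orange bars the part from the level within the class. The longest bar for Bhlhe41 is the mix part of fibroblast-gated cells, 6.75 CPM.

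How much of the rise fell to the mix depended on the cells and weights taken. Using only cells with 1 hashtag and the mean over replicates it was 44.4%, and with shares of cells in place of shares of UMIs it was 48.3%. With mixed cells given to the class with more of its markers, a choice made after seeing the data, it was 70.1%. Over the 9 pairings of an Empty vector with a Bmal1 WT replicate, which share replicates, the part from the mix ran from 18.7% to 86.4% (SD 23.2) and was over 50% in 6. All 3 pairings with h8 were at or below 32.4%, and without h8 the value over all cells was 70.1%. The part that fell to the mix is thus known only within this range.

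For Bhlhe40 the same division gave a fall from 674 to 406 CPM, of which 28.4% came from the mix and 71.6% from levels within classes. Smaller shares of NK-cell- and T-cell-gated cells came to 24.3% and 22.9% of the fall. Larger shares of melanoma- and fibroblast-gated cells went against it, at -28.2% and -10.48%. Lower levels gave 15.1% in melanoma-, 11.8% in macrophage- or monocyte- and 8.72% in dendritic-cell-gated cells, and 18.9% in cells with markers of 2 classes. With Leiden clusters in place of the gate the mix part was 48.1%.

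Within classes, Bhlhe40 was lower in Bmal1 WT in 5 of 6 classes, and no difference passed the adjusted threshold by edgeR or, in these classes, by DESeq2. The unadjusted edgeR p was 0.0166 in T-cell- and 0.00751 in dendritic-cell-gated cells and above 0.05 in the other 4 classes. In dendritic-cell-gated cells it measured 581, 998 and 701 CPM in Empty vector and 498, 354 and 512 CPM in Bmal1 WT. The groups did not overlap there, as for 15.5% of the 6155 genes tested in that direction. The log2 fold change was -0.74 ± 0.22 (SE), with an adjusted p of 0.178 by edgeR, which called 0.0812% of genes. Without a minimum count for genes the adjusted p was 0.00166.

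In NK-cell-gated cells Bhlhe40 measured 768, 732 and 746 CPM against 680.1, 584 and 644 CPM. The groups were apart, as for 13.6% of genes, by a log2 fold change of -0.23 ± 0.11 (SE, edgeR adjusted p = 0.353, 0.556% of genes called). In T-cell-gated cells it measured 663, 576 and 671 CPM against 503, 454 and 577 CPM. The highest Bmal1 WT replicate lay just above the lowest Empty vector replicate, and the log2 fold change was -0.33 ± 0.12 (SE, edgeR adjusted p = 0.112, 4.77% of genes called). Macrophage- or monocyte-gated cells had 995, 731 and 1006 CPM against 896, 452 and 552 CPM, with overlap and a log2 fold change of -0.52 ± 0.25 (SE, edgeR adjusted p = 0.407). With 1 replicate left out it ran from -0.86 (without h3) to -0.32 (without h5). There edgeR called 0% of genes, DESeq2 called 16, and 952 had an edgeR p under 0.05 before adjustment.

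Melanoma-gated cells had Bhlhe40 at 551, 677 and 198 CPM in Empty vector and 418, 204 and 304 CPM in Bmal1 WT, and the groups overlapped. The log2 fold change of -0.60 ± 0.44 (SE) had an adjusted p of 0.947 by edgeR, which called 0% of genes (384 at an unadjusted p under 0.05, 3 by DESeq2). With 1 replicate left out it ran from -1.001 (without h8) to -0.29 (without h7). In fibroblast-gated cells the replicates went the other way, with 250.4, 255 and 269 CPM against 293, 285 and 465 CPM and no overlap, as for 6.37% of the 3878 genes tested. The log2 fold change was 0.39 ± 0.31 (SE, edgeR adjusted p = 0.672), with 0% of genes called, 348 at an unadjusted p under 0.05 and 16 called by DESeq2. Without h9 it was 0.10. Over all fibroblast-gated cells, most of which carry no hashtag, the levels were 363 and 344 CPM with a log2 ratio of -0.08 (95% counting interval -0.19 to 0.04), so the direction seen in the replicates was not found in the whole class.

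Bhlhe41 within classes is given as a description. In fibroblast-gated cells the replicates were at 86.4, 77.0 and 29.3 CPM in Empty vector and 53.2, 34.5 and 206 CPM in Bmal1 WT, and they overlapped widely. The log2 fold change of 0.53 ± 0.70 (SE) rested on replicate h9, and without it the value was -0.61. In melanoma-gated cells the replicates were at 30.3, 52.9 and 5.67 CPM against 69.2, 24.3 and 43.6 CPM, also with overlap, and the log2 fold change was 1.04 ± 0.67 (SE). With 1 replicate left out it ran from 0.32 (without h8) to 1.74 (without h1). The h7 value there rested on 5 UMIs in 8 cells.

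Macrophage- or monocyte-gated cells had Bhlhe41 at 10.05, 0 and 3.43 CPM against 18.5, 13.0 and 9.15 CPM, from 92 UMIs in all, below the minimum of 100 for a fit. Over all cells of the class the levels were 6.02 CPM (4.12 to 8.50) and 15.6 CPM (12.02 to 19.9). The UMIs came from 13 of 655 and 19 of 370 cells, and at 2000 UMIs per cell the shares were 1.31% and 1.82% with overlapping intervals (0.565% to 2.56% and 0.670% to 3.92%). NK-cell-gated cells had 6.32, 14.04 and 6.62 CPM against 5.35, 6.96 and 5.30 CPM. T-cell-gated cells had 1.90, 0.947 and 6.27 CPM against 2.88, 0.989 and 5.29 CPM. Both classes overlapped between groups and showed no rise.

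Cells with markers of 2 classes rose from 9.57 to 26.9 CPM of Bhlhe41 (63 and 202 UMIs). Cells with fibroblast and melanoma markers held 109 of these 202 UMIs in 55 Bmal1 WT cells (27.5 CPM) and 21 UMIs in 10 Empty vector cells (13.3 CPM). Whether such cells were doublets was not tested. Ungated cells rose from 8.56 CPM (3.14 to 18.6, 6 UMIs, 249 cells) to 46.5 CPM (35.6 to 59.7, 61 UMIs, 293 cells). In Bmal1 WT, 49 of these 61 UMIs came from cells with no hashtag.

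Cells of a class were also split by markers other than the paralogues, and none of the 16 comparisons passed after adjustment. The smallest exact p with 6 pairs is 0.03125, so most comparisons would have had to reach it for any to pass. No conclusion is therefore drawn from the lack of a call. In melanoma-gated cells with Adm, Ndufa4l2 or Ankrd37, all 3 known as hypoxia-induced genes, Bhlhe41 measured 29.1 CPM (22.3 to 37.3) in Empty vector and 39.6 CPM (35.2 to 44.3) in Bmal1 WT. Without these genes it measured 11.4 CPM (6.65 to 18.3) and 9.21 CPM (6.34 to 12.9). The 5 replicates with enough cells all had more Bhlhe41 on the side with the hypoxia genes. They stood at 44.7, 8.45, 75.1, 31.0 and 59.8 CPM (h1, h8, h3, h5, h9) against 12.7, 0, 21.8, 6.80 and 0 CPM. The exact sign-flip p was 0.0625, the smallest 5 pairs allow, and 0.2 after adjustment over 16 comparisons. Bhlhe40 was also higher on that side in 5 of 5 replicates (1.43 on the log2(CPM + 1) scale, SD 0.93, exact p = 0.0625, adjusted 0.2).

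Depth moved with this split. Cells with the hypoxia genes had medians of 33449 and 45240 UMIs, and cells without had 4856 and 6309. The part of depth in the difference was not tested. In fibroblast-gated cells Bhlhe41 was at 90.2 and 97.3 CPM with these genes and at 76.9 and 45.3 CPM without, but only 2 replicates had 5 cells on each side and they went in opposite directions.

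**Figure D4:**
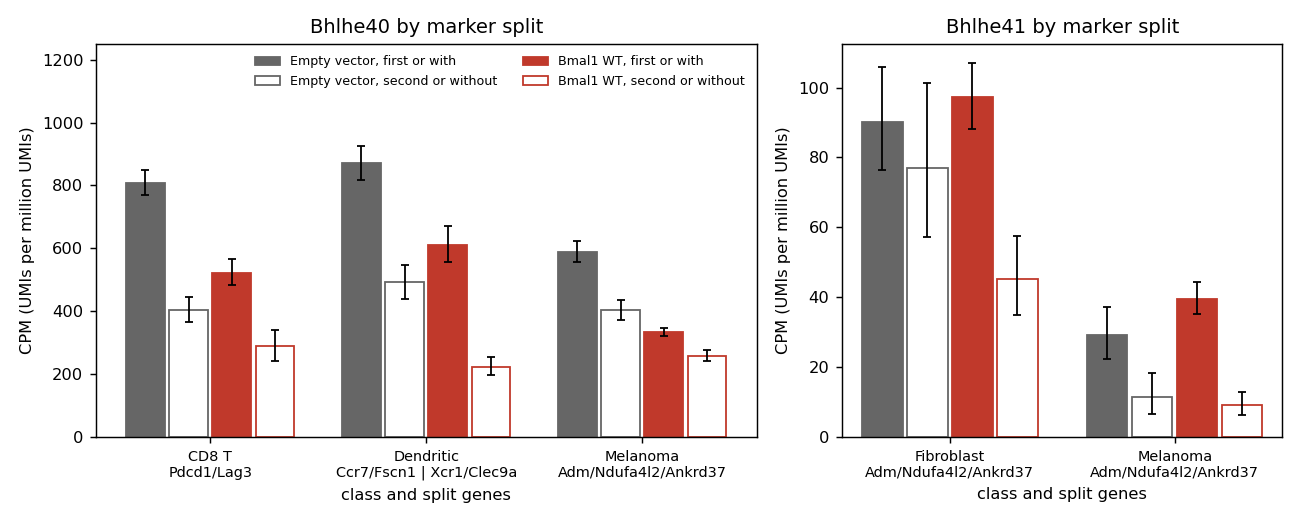
Level of Bhlhe40 (left) and Bhlhe41 (right) in CPM (y axes, starting at 0) on the 2 sides of marker splits within a class (x axis). Filled bars are cells with the genes named, or with Ccr7 or Fscn1 for dendritic cells, and open bars are cells without them, or with Xcr1 or Clec9a; error bars are exact 95% Poisson intervals. The filled bar is higher than the open bar of the same library in every pair shown. The pairs are a selection from the splits made. Splits that went the other way are not drawn, among them Bhlhe40 in regulatory CD4 T cells and in T and NK cells with Mki67 or Top2a.

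Among dendritic-cell-gated cells, mature cells with Ccr7 or Fscn1 had Bhlhe40 at 871 and 611 CPM (Empty vector and Bmal1 WT), and cells with Xcr1 or Clec9a, markers of the cross-presenting type, had 491 and 224 CPM. The mature cells were higher in 6 of 6 replicates, by 1.19 on the log2(CPM + 1) scale (SD 0.66, exact p = 0.03125, adjusted 0.2). The mature cells were the shallower ones, with medians of 6460 and 4624.5 UMIs against 8765 and 12414. Neither side had a Bhlhe41 UMI.

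CD8 T cells with Pdcd1 or Lag3, genes of checkpoint receptors, had Bhlhe40 at 809 and 523 CPM, and those without had 405 and 289 CPM. The direction held in 6 of 6 replicates (exact p = 0.03125, adjusted 0.2). The mean difference of 2.33 on the log2(CPM + 1) scale was 0.85 without h9, whose 8 cells without these genes had 0 UMIs. Regulatory CD4 T cells had less Bhlhe40 than conventional ones in 5 of 6 replicates (549 and 425 CPM against 773 and 729 CPM, exact p = 0.09375, adjusted 0.25). T and NK cells with Mki67 or Top2a, genes of dividing cells, had less than those without in 5 of 6 replicates (670 and 493 CPM against 729 and 676 CPM, exact p = 0.0625, adjusted 0.2). NK cells with Gzmc, a granzyme gene, had 772 and 592 CPM of Bhlhe40 against 760 and 691 CPM in those without, and were higher in 1 of 6 replicates (exact p = 0.4375, adjusted 0.636). Their Bhlhe41 was at 6.80 and 4.56 CPM against 8.80 and 6.66 CPM (exact p = 0.125, adjusted 0.25). Macrophages with Arg1 or Nos2 had Bhlhe40 at 1283 and 1030 CPM, and those with C1q genes at 874 and 720 CPM. Bhlhe40 was higher on the side with Arg1 or Nos2 in 4 of 6 replicates (exact p = 0.406, adjusted 0.636). Depth moved with the lymphocyte splits too, and its part was not tested. Median UMIs were 5779 and 7346 with Pdcd1 or Lag3 against 4178 and 5593 without. Regulatory cells had 6228.5 and 11620 against 3586 and 5057.5 in conventional ones. Medians were 7639 and 8714 with Mki67 or Top2a against 3640 and 5411 without, and 8046.5 and 10683 with Gzmc against 4056 and 5581.

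The paralogues were not exclusive within cells. In fibroblast-gated cells thinned to 2000 UMIs, Bhlhe40 was seen in 10 of 19 cells with Bhlhe41 in the Empty vector library and in 20 of 36 in the Bmal1 WT library. It was seen in 38.0% and 41.4% of cells without Bhlhe41. These small counts are given without a test.

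The clock list, which holds the partners and targets of the BMAL1 complex, was read beside the paralogues. Over all cells 16 of 18 clock genes were tested and 0 passed edgeR's adjusted threshold in either direction, 6 had an unadjusted p under 0.05, and DESeq2 called 1. Its median log2 fold change was 0.18, against -0.02 over all genes. Of all 12042 genes tested, 2933 had an unadjusted edgeR p under 0.05, and DESeq2 called 961. Nr1d1, which encodes the repressor REV-ERBα, was at 3.87 ± 0.67 and 16.3 ± 6.19 CPM (log2 fold change 2.08 ± 0.33 SE, edgeR adjusted p = 0.151). Rora, Hlf and Cry1 had log2 fold changes of -0.45, -1.17 and -0.51 (edgeR adjusted p = 0.157, 0.170 and 0.178). In melanoma-gated cells Nr1d1 was at 7.94 ± 2.97 and 53.8 ± 20.3 CPM (2.92 ± 0.49 SE, edgeR adjusted p = 0.454). Per1, Cry1 and Nr1d2 had log2 fold changes of 1.40, -1.20 and 0.99 there (edgeR adjusted p = 0.927 each).

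In T-cell-gated cells 9 of 9 tested clock genes lay lower in Bmal1 WT under each of 3 scalings, with 0 passing edgeR's threshold, 0 by DESeq2 and 4 at an unadjusted p under 0.05. The median was -0.45 against -0.09 over all genes. Of all 7838 genes tested there, 1882 had an unadjusted edgeR p under 0.05, and DESeq2 called 345. With total-UMI scaling 60.0% of them lay lower. Nr1d2, a paralogue of Nr1d1, was at 31.2 ± 6.88 and 16.6 ± 4.81 CPM (log2 fold change -0.90 ± 0.28 SE, edgeR adjusted p = 0.0760). In NK-cell-gated cells 8 of 8 were lower, 7 of 8 with DESeq2's scaling, and Nr1d2 fell from 31.9 ± 5.41 to 11.9 ± 1.26 CPM (-1.36 ± 0.29 SE, edgeR adjusted p = 0.0450). That call was lost with TMM scaling and with DESeq2. In this class edgeR called 39 of 7009 genes, and 63.7% of genes lay lower. Of 6, 4, 3 and 12 clock genes tested in macrophage- or monocyte-, dendritic-cell-, fibroblast- and melanoma-gated cells, 0 passed by edgeR and DESeq2 called 1, in melanoma-gated cells, while 0, 1, 0 and 2 were below an unadjusted p of 0.05. Over all genes 952 of 7004 and 920 of 6155 were below it in macrophage- or monocyte- and dendritic-cell-gated cells. The counts for fibroblast- and melanoma-gated cells are given with Bhlhe40 above.

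Of the 14 hypoxia genes, 12 were higher and 2 lower over all cells, with 0 passing edgeR's threshold, 2 at an unadjusted p under 0.05 and 2 called higher by DESeq2. The median was 0.43 against -0.02 over all genes. Of all 12042 genes tested, 2933 had an unadjusted edgeR p under 0.05, and DESeq2 called 467 higher. With total-UMI scaling 51.6% of them lay lower. Car9, carbonic anhydrase 9, was at 12.2 ± 8.07 and 59.5 ± 24.9 CPM (log2 fold change 2.23 ± 0.59 SE, edgeR adjusted p = 0.151), and Ldha, P4ha1 and Ankrd37 had log2 fold changes of 0.50, 0.73 and 0.47. In melanoma-gated cells 6 of 12 tested were higher and 6 lower, with 0 called by edgeR and by DESeq2 and 3 at an unadjusted p under 0.05. Of 11, 9, 12 and 9 tested in T-cell-, NK-cell-, macrophage- or monocyte- and dendritic-cell-gated cells, both tools called 0, and 3, 1, 0 and 1 had an unadjusted p under 0.05. Over all genes 1882 of 7838, 1016 of 7009, 952 of 7004 and 920 of 6155 did so in these classes. The counts for melanoma- and fibroblast-gated cells are given with Bhlhe40 above. In fibroblast-gated cells 10 of 12 were higher, with a median of 0.33 against -0.10 over all genes and 0 called by edgeR and by DESeq2 (2 at an unadjusted p under 0.05). The share of fibroblast- and melanoma-gated cells also differed over all cells, and its part in these values was not tested.

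Of 7 genes tied to Bhlhe40 in lymphocytes, 4 were tested in T-cell-gated cells. Il10, a cytokine gene that Bhlhe40 is known to repress, fell from 81.6 ± 33.6 to 18.8 ± 13.3 CPM (log2 fold change -2.04 ± 0.44 SE, edgeR adjusted p = 0.0266), and DESeq2 did not call it. In these cells edgeR called 4.77% of all genes tested. Tbx21, Ifng and Prdm1 had log2 fold changes of -0.59, -0.72 and 0.19 (edgeR adjusted p = 0.118, 0.248 and 0.551). Bhlhe40 itself, at a log2 fold change of -0.33, did not pass the threshold in those cells. In NK-cell-gated cells Tbx21 had a log2 fold change of -0.50 (edgeR adjusted p = 0.1799). Over all cells 5 of 5 tested genes of the list were lower and 0 passed edgeR's threshold (3 at an unadjusted p under 0.05, and DESeq2 called 2). Of all 12042 genes, 2933 had an unadjusted edgeR p under 0.05, and DESeq2 called 494 lower. With total-UMI scaling 51.6% of them lay lower. Of the 8 other Orange-domain repressors, Hes1 and Hes6 were tested over all cells, with log2 fold changes of 0.60 and -0.43 (edgeR adjusted p = 0.206 and 0.275).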

How the data were processed

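Droplet-based single-cell RNA sequencing (10x Genomics 3′ chemistry, version 3.1) measured polyadenylated RNA in 2 libraries used here. The authors deposited raw UMI counts per gene and barcode, filtered to called cells and not normalized, made with Cell Ranger 6.1.2 on mm10; a 3′ count follows molecules and not gene length, so levels of the paralogues were not compared with each other. For the annotation and strandedness of the counting, the sources used here say nothing. Positions are from GENCODE M21, which held 30934 of 31053 identifiers.

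Cells with at least 200 genes and at most 20% mitochondrial UMIs were kept. Hashtags were assigned by a 2-component Gaussian mixture (scikit-learn 1.9.0), with minimum counts from 17 to 159. How pure the replicates are was not measured. A cell joined the class with the largest share of its markers detected (at least 2), unless another class reached over 0.5 of that share (mixed). Not every marker of the gates is reported here. Cells with several hashtags entered no replicate, mixed cells were kept apart, and no doublet caller was run. UMIs were summed per hashtag replicate, and genes with at least 100 UMIs were tested with edgeR 4.0.16 (quasi-likelihood, total-UMI scaling, Benjamini-Hochberg at 0.05). SE is the log2 fold change divided by the root of F. Class and subclass differences used two-sided exact sign-flip tests on log2(CPM + 1) within replicates holding at least 5 cells on both sides. Replicates share a channel, and nothing says they came from separate animals or cultures, so p-values measure only the spread between these samples. The fit was tested on simulated data. Alternatives were TMM, DESeq2 1.42.0, other cell and gene filters, hashtags by the highest centred log count, a 3-marker gate, Leiden clusters (scanpy 1.11.5), other weights, a pseudocount of 10 and leaving out each replicate. The members, lists and splits were chosen with earlier results of these data known. Genes named from a list are the 4 of smallest unadjusted p.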

Additional observations from a re-analysis of the deposited data

Results flagged for a closer look

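In the hashtag replicates Bhlhe40 went in opposite directions in fibroblast-gated cells and in NK-cell- and dendritic-cell-gated cells. All 3 Bmal1 WT replicates were above all Empty vector replicates in fibroblast-gated cells, and below them in NK-cell-gated and in dendritic-cell-gated cells. Such a separation was found for 6.37%, 13.6% and 15.5% of the genes tested in these classes and directions. Over all fibroblast-gated cells, with or without a hashtag, the log2 ratio was -0.08. The change in fibroblast-gated cells exceeded that in NK-cell-gated cells by 0.63, and that in dendritic-cell-gated cells by 1.11, on the log2(CPM + 1) scale. These pairs were picked because the replicates were fully apart in opposite directions, so the differences were not tested. The log2 fold change in fibroblast-gated cells was 0.39, and 0.10 without h9. When every cell was given to its highest centred hashtag, which adds the cells below the hashtag minimum, the log2 fold change of Bhlhe40 in fibroblast-gated cells was -0.061.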

How the results depend on the processing

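The 37 results were recomputed under 361 alternatives in all, of which 348 kept the direction and the side of the threshold or, for values without a test, moved by less than 1 SD of the replicates. No main test passed and the sign-flip tests could hardly pass, so keeping the side of the threshold was largely set in advance. For values without a test a change of sign could count as kept. The count is thus no measure of how firm the results are. Bhlhe40 passed the adjusted threshold in dendritic-cell-gated cells only without a minimum count for genes (log2 fold change -0.74, edgeR adjusted p = 0.00166). Its adjusted p there ran from 0.00166 to 0.359 over the alternatives, and the cause was not tested. When cells below the hashtag minimum were added by their highest centred hashtag, the log2 fold change of Bhlhe40 in fibroblast-gated cells turned to -0.061 and that of Bhlhe41 over all cells was 1.21. Bhlhe41 in fibroblast-gated cells ran from -0.61 (without h9) to 0.94 with 1 replicate left out, and was -0.10 with the added cells.

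The order of neighbouring classes turned for Bhlhe40 in dendritic-cell- against T-cell-gated cells with at least 3 markers (-0.0089) and with 1 replicate left out (-0.13 without h7 to 0.10), and in melanoma- against fibroblast-gated cells with Leiden clusters (-0.17). For Bhlhe41 it turned in NK-cell- against macrophage- or monocyte-gated cells with a pseudocount of 10 (-0.063) and with 1 replicate left out (-0.59 without h7 to 0.52). For Bhlhe41 a pair of lymphocyte splits with few UMIs also turned, T and NK cells with Mki67 or Top2a at a pseudocount of 10 (0.026) and with 1 replicate left out (-0.16 to 0.33), and CD8 T cells with Pdcd1 or Lag3 with 1 replicate left out (-0.87 to 0.44). The part of the rise of Bhlhe41 from the mix ran from 44.4% to 70.1%. TMM scaling moved the median log2 fold change of all genes by 0.11 in fibroblast-gated cells and DESeq2's size factors by 0.11 in dendritic-cell- and 0.10 in NK-cell-gated cells, where Bhlhe40 was then at -0.64 and -0.13. No call of Bhlhe40 was changed by these shifts. The 3-marker gate left too few melanoma-gated cells in a replicate for a fit.

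Empty vector and Bmal1 WT were compared unpaired, because nothing given links their replicates. Only classes and subclasses were paired, within each hashtag replicate. Among the classes compared, depth limits Bhlhe41 outside fibroblast- and melanoma-gated cells, where 3 to 96 UMIs per class were counted.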
